A study of Mus musculus with 6 samples.

Results

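Ptprc and 6 genes of integrin chains were followed in heart tissue of Zeb2 cKO and control mice 14 days after MI. Ptprc is the gene of CD45, the phosphatase found on all leukocytes. The 7 genes (Itgal, Itgam, Itgax, Itgb2, Itga4, Itgb7 and Ptprc) were chosen by name, and each matched 1 row by its Ensembl identifier among the 38293 genes of the count table. All 7 passed the filter on low counts that left 14746 genes for testing. In 6 libraries the 7 genes together held 962, 4157 and 1212 counts in WT replicates 1, 2 and 3, and 1463, 1245 and 1547 counts in Zeb2 cKO replicates 1, 2 and 3.

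The Zeb2 cKO group (n = 3) carried floxed Zeb2 alleles with Cre under the cardiomyocyte promoter of alpha-MHC. The control group (n = 3) is named WT in the labels and Zeb2 fl/fl in the study's methods, so the controls had the floxed alleles without Cre according to the methods. All mice were adult males backcrossed to C57BL/6J, and the left anterior descending artery was tied off for good in all of them, so no uninjured heart was compared. The labels place the tissue in the border region of the infarct, whereas the methods place it in the remote zone. Cre acts in cardiomyocytes, whereas the RNA came from whole tissue and the 7 genes belong to blood-derived cells. In such bulk samples, fewer cells of a type and less RNA per cell cannot be told apart. The labels name the libraries as separate samples without naming the animals, so p-values measure the spread between these libraries.

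Integrins are surface receptors made of an alpha and a beta chain, through which leukocytes hold on to the vessel wall and to matrix. Itgal (CD11a), Itgam (CD11b) and Itgax (CD11c) encode alpha chains that pair with the beta chain of Itgb2 (CD18), and these receptors bind ICAM proteins, fibrinogen and complement fragments. Itga4 pairs with Itgb1 to bind VCAM1 and fibronectin, or with Itgb7 to bind MAdCAM1 on gut vessels. In the injured heart, Itgam is carried by monocytes, macrophages and neutrophils, Itgax by dendritic cells and some macrophages, and Itgal most strongly by lymphocytes. CD45 removes inhibitory phosphates from Src family kinases and is found on all nucleated blood cells.

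On build GRCm38, Itgal (ENSMUSG00000030830) lies at chr7:127296260-127335138, Itgam (ENSMUSG00000030786) at chr7:128062640-128118491 and Itgax (ENSMUSG00000030789) at chr7:128129547-128150657, all on the plus strand. Itgam and Itgax are thus neighbours on chromosome 7, as annotated. Itgb2 (ENSMUSG00000000290) lies at chr10:77530252-77565708 and Itga4 (ENSMUSG00000027009) at chr2:79255426-79333123, both on the plus strand. Itgb7 (ENSMUSG00000001281) lies at chr15:102215995-102231944 and Ptprc (ENSMUSG00000026395) at chr1:138062861-138175708, both on the minus strand. All are protein-coding, and their values are counts over the exons of the whole gene. Exon bases or sequence were shared with other genes in 4 of them, and whether reads were split was not tested. Itgam shares 68.7% of its exon bases with Gm49368 on the same strand, a gene not counted in the table used here. Itga4 overlaps Cerkl on the opposite strand over 8.04% of its exon bases. By sequence, Itgb2 has 228 bases at 95% identity or more in common with Gm14699, and Itgax has 99 bases in common with Itgad.

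Promoters are shown for Itgam and Ptprc as examples, Itgam because it holds the most copies of GAGGAA, the core of PU.1 sites, and Ptprc because the integrin counts are later divided by its counts. PU.1 is a transcription factor of myeloid cells. Each line gives 200 bases before the start of transcription in the sense of the gene, from RefSeq on GRCm38.p6, with GAGGAA or its reverse complement in capitals. The Itgam stretch is chr7:128062440-128062639 on the plus strand and the Ptprc stretch chr1:138175306-138175505 on the minus strand.
Itgam: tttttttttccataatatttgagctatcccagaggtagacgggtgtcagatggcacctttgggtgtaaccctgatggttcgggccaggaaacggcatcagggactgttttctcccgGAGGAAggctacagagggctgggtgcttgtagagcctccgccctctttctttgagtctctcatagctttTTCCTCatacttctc
Ptprc: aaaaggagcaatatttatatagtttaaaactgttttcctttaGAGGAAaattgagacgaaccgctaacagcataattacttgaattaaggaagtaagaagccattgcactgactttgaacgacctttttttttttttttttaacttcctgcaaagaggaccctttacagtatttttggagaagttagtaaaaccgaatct

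RefSeq promoters of 300 bases, 250 before to 50 after the start, were matched for Itga4, Itgam, Itgax, Itgb7 and Ptprc, with 2 for Ptprc. GAGGAA on either strand occurred 3 times in Itgam, once in Itgb7, once in 1 of the promoters of Ptprc, and not in Itga4 or Itgax. The letters were in 28.3% of all 32851 promoters of this length. CACCTG, an E-box bound by ZEB proteins, was found in none of the 6 promoters and in 20.2% of all. The motifs do not overlap each other in their letters. These matches describe the letters in these windows only.

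Total counts ranged from 37288174 to 51136331 per library, of which 60.5% to 67.0% came from mitochondrially encoded genes, with the lowest share in WT replicate 2. Levels are given as CPM, counts scaled to a common library size after TMM normalization. Zeb2 itself was at 61.3, 116.05 and 71.9 CPM in WT and at 59.6, 72.6 and 66.5 CPM in Zeb2 cKO replicates 1, 2 and 3. Its log2 fold change was -0.33 (SE 0.25, adjusted p = 0.957, edgeR quasi-likelihood test), and -0.0058 without WT replicate 2. WT replicate 2 stood apart from the other libraries, with 9.75% of 14746 tested genes at more than 2 times the median of the other 5 libraries. Fold changes are therefore given with and without it. In that library most macrophage markers and the fibroblast markers were high and most cardiomyocyte markers lay under the other libraries. Their values are given further on.

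All 7 genes were highest in WT replicate 2. In the other 5 libraries the highest was 1.05 to 1.19 times the lowest for Itgam, Itgb2 and Itga4, 1.56 and 1.57 times for Itgax and Ptprc, 2.07 times for Itgal and 2.42 times for Itgb7. None of the 7 genes passed the test between the groups, and without WT replicate 2 the median difference was near 0. Over all 14746 tested genes, 0% passed an adjusted p of 0.05 in edgeR (quasi-likelihood test, adjusted after Benjamini and Hochberg). At an unadjusted p under 0.05, 127 genes were lower and 153 higher in Zeb2 cKO (0.861% and 1.04%), and DESeq2 called 2 genes after adjustment, Slc46a2 and Mrap2, both higher and named after their values were seen. With DESeq2, 1 of the 7 genes, Itgax, had an unadjusted p under 0.05, beside 217 lower and 144 higher of 14746 tested genes. With edgeR, 0 of the 7 had an unadjusted p under 0.05. Without WT replicate 1, when WT replicate 2 was 1 of 2 control libraries, 5 of the 7 were lower at that level, beside 5.49% of 15075 tested genes. Without WT replicate 3 it was 1 of the 7, beside 1.7% of tested genes, and without WT replicate 2 it was 0.

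Ptprc was at 9.21, 39.03 and 14.5 CPM in WT replicates 1, 2 and 3 and at 11.9, 12.2 and 12.0 CPM in Zeb2 cKO replicates 1, 2 and 3. The Zeb2 cKO libraries lay between WT replicates 1 and 3, and WT replicate 2 was 3.26 times the median of the other 5. The log2 fold change of Ptprc was -0.80 (SE 0.49, 95% interval -1.96 to 0.36, adjusted p = 0.957, edgeR), and an exact permutation test, two-sided, gave p = 0.7. Without WT replicate 2 it was 0.03 (SE 0.18, interval -0.39 to 0.45).

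Itgb2, the beta chain shared by the CD11 chains, was at 4.46, 15.7 and 4.77 CPM in WT and 5.04, 4.24 and 4.41 CPM in Zeb2 cKO. Apart from WT replicate 2, its highest library was 1.19 times its lowest. The log2 fold change was -0.86 (SE 0.49, interval -2.02 to 0.29, adjusted p = 0.957, edgeR; exact permutation p = 0.5), and -0.01 (SE 0.14, interval -0.33 to 0.31) without WT replicate 2.

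Itgam, its myeloid partner, was at 4.86, 16.7 and 4.97 CPM in WT and 4.98, 5.07 and 5.10 CPM in Zeb2 cKO. It was the steadiest of the 7, with a highest library at 1.05 times the lowest when WT replicate 2 was set aside. Its log2 fold change was -0.81 (SE 0.48, interval -1.95 to 0.33, adjusted p = 0.957, edgeR; exact permutation p = 1), and 0.04 (SE 0.12, interval -0.23 to 0.31) without WT replicate 2.

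Itgax was at 1.22, 5.88 and 0.964 CPM in WT and 0.799, 0.784 and 1.00 CPM in Zeb2 cKO. The excess in WT replicate 2 was 6.10 times the median of the other 5, close to that of Itgb7 (6.08) and above the rest of the 7 genes, and Zeb2 cKO replicate 3 lay above WT replicate 3. The log2 fold change was -1.64 (SE 0.70, interval -3.30 to 0.0077), with an unadjusted p of 0.0508 and an adjusted p of 0.957 by edgeR and an exact permutation p of 0.2. Without WT replicate 2 the difference was -0.33 (SE 0.26, interval -0.94 to 0.27). Outside WT replicate 2, the Itgax values rest on 34 to 54 counts per library.

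Itgal was at 0.558, 1.89 and 0.521 CPM in WT and 1.08, 0.530 and 1.06 CPM in Zeb2 cKO. Zeb2 cKO replicates 1 and 3 lay above WT replicates 1 and 3, while Zeb2 cKO replicate 2 lay between those WT libraries. The log2 fold change was -0.16 (SE 0.57, interval -1.50 to 1.18, adjusted p = 0.980, edgeR; exact permutation p = 0.9). Without WT replicate 2 the difference turned to 0.73 (SE 0.38, interval -0.15 to 1.62, unadjusted p = 0.0912, adjusted p = 1.000 with edgeR). These values rest on 20 to 83 counts per library.

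Itga4 was at 4.94, 13.8 and 5.55 CPM in WT and 5.12, 5.62 and 4.75 CPM in Zeb2 cKO. WT replicate 2 was 2.69 times the median of the other 5, the smallest such excess of the 7 genes. The log2 fold change was -0.65 (SE 0.39, interval -1.58 to 0.28, adjusted p = 0.957, edgeR; exact permutation p = 0.5), and -0.02 (SE 0.13, interval -0.33 to 0.29) without WT replicate 2.

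Itgb7 was at 0.292, 1.82 and 0.312 CPM in WT and 0.300, 0.207 and 0.502 CPM in Zeb2 cKO, from 9 to 80 counts. Zeb2 cKO replicates 2 and 3 lay on either side of WT replicates 1 and 3. The log2 fold change was -1.26 (SE 0.78, interval -3.13 to 0.59, adjusted p = 0.957, edgeR; exact permutation p = 0.6), and 0.18 (SE 0.46, interval -0.90 to 1.26) without WT replicate 2.

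**Figure D1:**
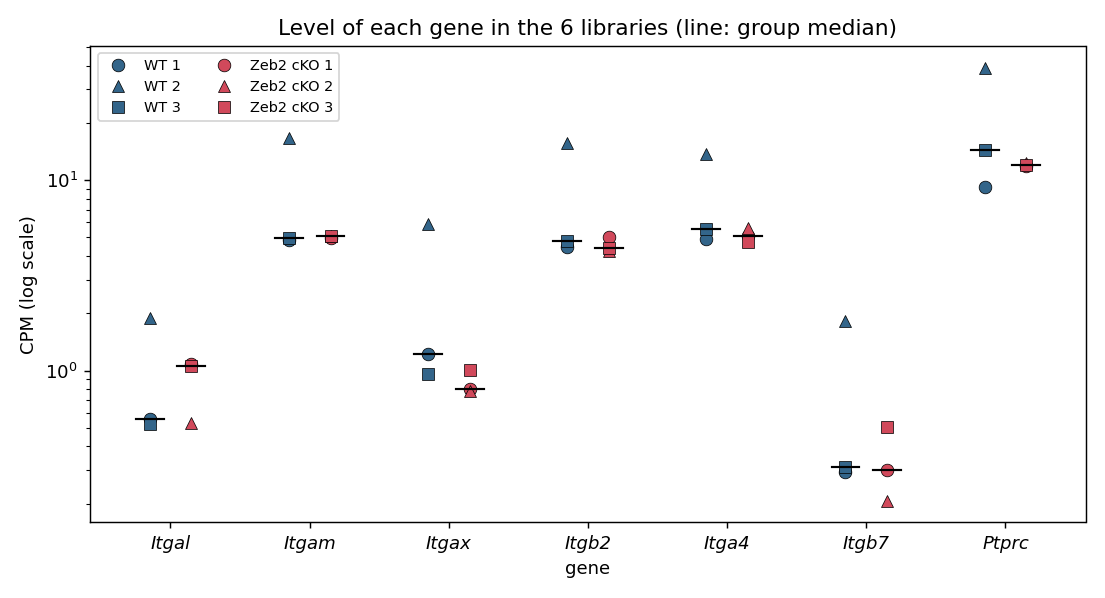
CPM on a log scale of each gene in the 3 WT (blue) and 3 Zeb2 cKO (red) libraries, with the symbol giving the replicate number and a line at each group's median. WT replicate 2 is the highest point for every gene, from 1.82 CPM for Itgb7 to 39.03 CPM for Ptprc.

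With all libraries, 7 of 7 genes had a log2 fold change below 0 and 6 of 7 were under -0.2, where 22.6% of all tested genes were. The median of the 7 was -0.81, and that of all tested genes was -0.0069. No gene of the 7 had groups that did not overlap, against 6.36% of tested genes. Without WT replicate 2, 14966 genes were tested, of which 0% passed adjustment and 1.08% were lower and 1.55% higher at an unadjusted p under 0.05. The median of the 7 was then 0.03, with 1 gene (Itgax) under -0.2 against 11.7% of all genes and 1 (Itgal) over 0.2 against 14.2%. Itgam alone then had groups that did not overlap, against 15.5% of all genes, by a difference of 0.04 on the log2 scale.

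**Figure D2:**
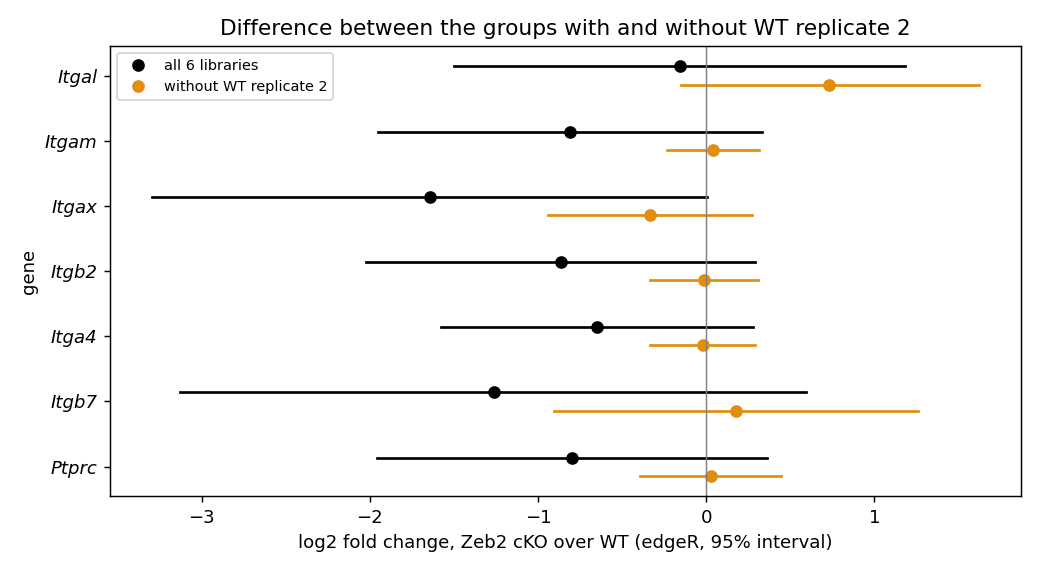
Log2 fold change of Zeb2 cKO over WT on the horizontal axis with its 95% interval from edgeR, with all 6 libraries (black) and without WT replicate 2 (orange). The black points lie between -1.64 and -0.16, and the orange points between -0.33 and 0.73, with intervals that all include 0.

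Levels of different genes can be compared only per length, here as CPM per kilobase of the union of annotated exons. By the median over 6 libraries the order was Itgb2 (1.51), Itgam (1.00), Ptprc (0.661), Itga4 (0.381), Itgax (0.205), Itgal (0.123) and Itgb7 (0.111). Itgb2 was above Itgam and Itgam above Ptprc in each of the 6 libraries. Itga4 was above Itgax in all but WT replicate 2, and Itgax and Itgal came close in Zeb2 cKO replicate 1, at 0.166 and 0.164. Itgal and Itgb7 could not be ordered, since Itgal was the higher in 2 of 6 libraries. The place of Ptprc depended on the length used, because its annotated exons span 18313 bases and its longest transcript 5740. On the length of the longest transcript Ptprc came first, with a median of 2.11 CPM per kilobase, ahead of Itgb2 with 1.55 and Itgam with 1.07, and the other genes kept their order.

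The alpha chains that pair with Itgb2 were close in sum to Itgb2 itself. Itgal, Itgam, Itgax and Itgad together came to 0.906, 0.948 and 0.813 of the Itgb2 level per kilobase of exon in WT replicates 1, 2 and 3 and to 0.811, 0.902 and 0.965 in Zeb2 cKO replicates 1, 2 and 3 (exact permutation p = 1). WT replicate 2, high in each chain, was within the range of the other libraries in this ratio. On the length of the longest transcripts the ratio was between 0.873 and 1.04. Itgam made up most of the alpha sum, with 73.1% ± 4.89 in WT and 75.8% ± 4.17 in Zeb2 cKO (SD, n = 3; exact permutation p = 0.5).

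The shares of Itgax and Itgal within this sum did not overlap between the groups. Itgax made up 19.2, 25.2 and 15.8% in WT replicates 1, 2 and 3 and 12.4, 13.0 and 15.01% in Zeb2 cKO. Itgal made up 6.41, 5.92 and 6.24% in WT and 12.3, 6.44 and 11.6% in Zeb2 cKO, where replicate 2 was just above the WT libraries. Each gave an exact permutation p of 0.1, two-sided, the smallest that 3 libraries against 3 can give, so this design cannot pass 0.05. Shares of 1 sum are not independent, these were 2 of 4 in the sum, and no background share over other genes was at hand to set beside them. The nearest libraries were within counting error of each other. By plain counts of the 4 alpha chains, Itgal took 8.30% in WT replicate 1 (21 counts, 95% Wilson interval 5.49 to 12.4) and 8.30% in Zeb2 cKO replicate 2 (23 counts, 5.60 to 12.2), and Itgax took 14.9% in WT replicate 3 (11.02 to 19.9) and 14.0% in Zeb2 cKO replicate 3 (10.9 to 17.8). The WT means without replicate 2 of the shares per kilobase were 17.5% for Itgax and 6.33% for Itgal, against 13.5% and 10.1% in Zeb2 cKO.

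**Figure D3:**
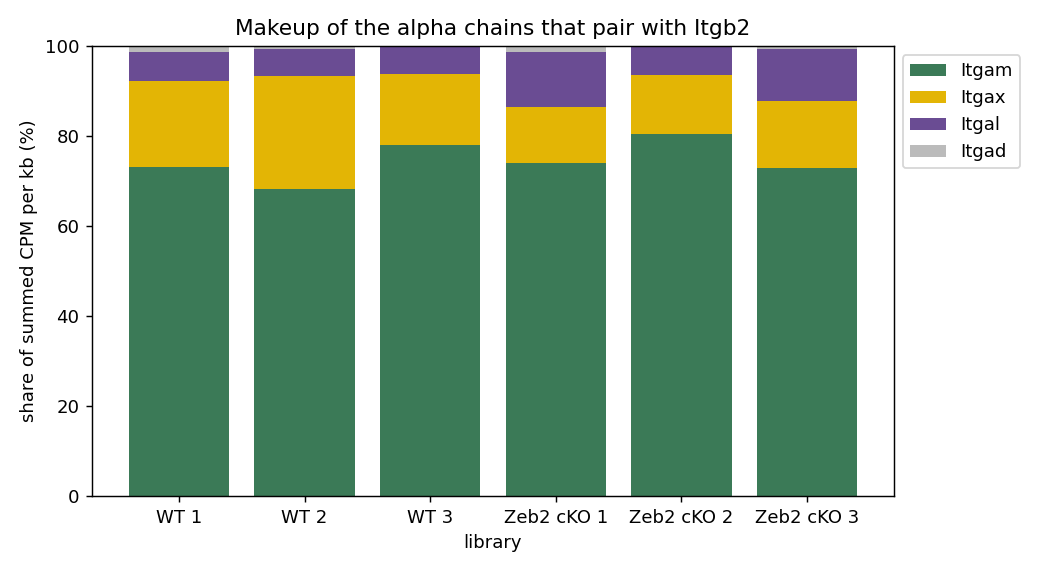
Share of each alpha chain in the summed CPM per kilobase of Itgam, Itgax, Itgal and Itgad, one bar per library, from 0 to 100%. Itgam takes 68.2% to 80.5%, and Itgal takes 12.3% and 11.6% in Zeb2 cKO replicates 1 and 3 and 5.92% to 6.44% in the other libraries.

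Dividing each chain by Ptprc in the same library removes the library size. Relative to Ptprc counts, Itgam stood at 52.7, 42.7 and 34.4% in WT and 41.7, 41.4 and 42.6% in Zeb2 cKO, so WT replicate 2 fell inside the range of the WT group. Itgb2 stood at 48.4, 40.1 and 32.9% in WT and 42.2, 34.7 and 36.9% in Zeb2 cKO. Itga4 stood at 53.6, 35.3 and 38.3% in WT and 42.9, 46.0 and 39.7% in Zeb2 cKO. These ratios did not part the groups, with differences in the mean log2 ratio of -0.02, -0.08 and 0.04 (exact permutation p = 0.7, 0.7 and 0.9).

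Itgax was at 13.3, 15.1 and 6.65% of Ptprc in WT and at 6.70, 6.40 and 8.40% in Zeb2 cKO, a mean log2 difference of -0.62 (exact permutation p = 0.3). Itgal was at 6.05, 4.85 and 3.60% in WT and at 9.05, 4.33 and 8.86% in Zeb2 cKO, a difference of 0.57 (exact permutation p = 0.3). Without WT replicate 2 these differences were -0.40 and 0.58. Itgb7 was at 3.17, 4.67 and 2.16% in WT and 2.51, 1.69 and 4.20% in Zeb2 cKO, a difference of -0.27 (exact permutation p = 0.7).

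**Figure D4:**
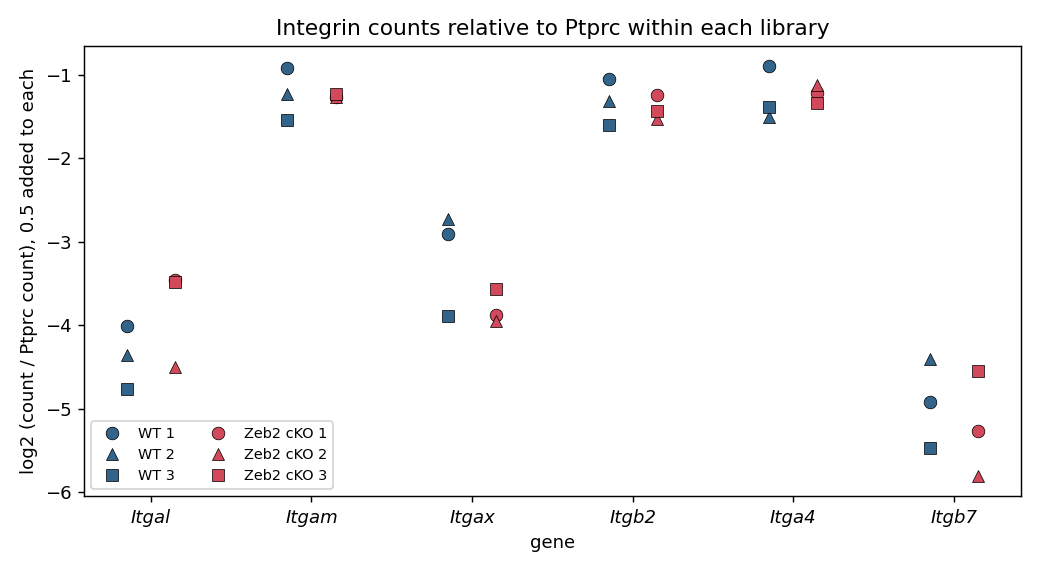
Log2 ratio of each integrin gene's count to the Ptprc count of the same library, with 0.5 added to each count, for 3 WT (blue) and 3 Zeb2 cKO (red) libraries. The groups overlap for all 6 genes, and WT replicate 2 is the highest WT library for Itgax and Itgb7 only.

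Among the 21 pairs of the 7 genes, 2 had count ratios whose groups did not overlap, Itgal to Itgax and Itgal to Itgb7, named here after their values were seen. Over all pairs of tested genes this share was 6.85%. Itgal counts were 0.457, 0.322 and 0.541 of Itgax counts in WT and 1.35, 0.676 and 1.06 of them in Zeb2 cKO, a mean log2 difference of 1.19 (exact permutation p = 0.1). As a share of the counts of both genes, Itgal took 35.1% in WT replicate 3 (95% Wilson interval 24.0 to 48.1) and 40.4% in Zeb2 cKO replicate 2 (28.6 to 53.3), so the nearest libraries of the groups were within counting error of each other. Such intervals cover counting error only.

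The genes most like Itgb2 and Ptprc were sought by the root mean square difference of centred log2 CPM over the 6 libraries, among 12322 genes with a mean of at least 1 CPM. For Itgb2 they were Ada (0.0576), Tiam1 (0.0685), Adamtsl1 (0.0812), Pirb (0.0825) and Snora23 (0.0837). For Ptprc they were Gpm6b (0.0419), Pld4 (0.0736), Prkcb (0.0783), Pla2g7 (0.0818) and Snord17 (0.0829). Among the 7 genes the nearest to Itgb2 was Itgam, at 0.0905. Over the 5 libraries without WT replicate 2 other genes came first, Wdr12, Jtb, Ubl4a, Bmpr1a and Mettl22 for Itgb2 and Gm15446, Gpm6b, Pon3, Ube2ql1 and Pcdhb14 for Ptprc, so that 1 of 10 names remained.

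The other integrin chains of leukocytes were less uniform in WT replicate 2, and 0 of 9 tested genes of 10 passed the test in either direction. Itgb1, the broadly expressed beta chain that pairs with Itga4, was at 216.0, 303.0 and 253.8 CPM in WT and 194.2, 204.7 and 256.8 CPM in Zeb2 cKO, a log2 fold change of -0.24 (SE 0.19, adjusted p = 0.957, edgeR). Per kilobase of exon it was between 75.3 and 185.3 times Itga4. The smallest unadjusted p values besides Itgb1 were those of Itga2 (log2 fold change -0.85, SE 0.44) and Itgav (-0.55, SE 0.33). The differences of Itgb1, Itga2 and Itgav were -0.10, -0.24 and -0.10 without WT replicate 2. The alpha chain Itgad, a further partner of Itgb2, was at most at 0.160 CPM and was not tested.

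Of the ligands of these integrins, 0 of 9 tested genes of 13 passed the test. Vcam1, the vascular ligand of Itga4 with Itgb1, was at 9.19, 35.5 and 11.6 CPM in WT and 11.9, 11.1 and 9.98 CPM in Zeb2 cKO, with a log2 fold change of -0.77 (SE 0.49) that was 0.09 without WT replicate 2. Fn1, fibronectin, had -1.39 (SE 0.73) and Thy1 -0.61 (SE 0.34), which were -0.03 and -0.17 without that library. Icam1, a main ligand of the Itgal and Itgam receptors, had -0.45 (SE 0.32), and -0.05 without WT replicate 2. Madcam1, the ligand of Itga4 with Itgb7, reached at most 0.0521 CPM and was not tested.

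Of the genes that promote or restrain the binding state of these integrins, 0 of 16 tested genes of 17 passed. The smallest p values were those of Cytip, a cytohesin-binding protein (log2 fold change -1.14, SE 0.58), Fyb, an adaptor (-1.01, SE 0.59), and Vav1, a signalling protein of blood cells (-0.88, SE 0.52), with -0.14, 0.04 and 0.03 without WT replicate 2. Fermt3, the kindlin of blood cells, had -0.58 (SE 0.39), and -0.02 without WT replicate 2. The median of the list was -0.41, and -0.01 without WT replicate 2.

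Of the selectins and their ligands, 0 of 7 tested genes of 8 passed. Selp, the selectin of platelets and endothelium, had a log2 fold change of -1.37 (SE 0.59), its ligand Selplg -1.01 (SE 0.54) and Podxl 0.17 (SE 0.19). They had -0.53, -0.06 and -0.01 without WT replicate 2. Of the partners of CD45 and the Src family kinases, 0 of 11 tested genes of 13 passed after adjustment, and 1, Lgals3, was lower at an unadjusted p under 0.05. Lgals3, a galectin that binds glycoproteins of the cell surface, was at 2.39, 14.6 and 3.39 CPM in WT and 1.96, 1.198 and 2.29 CPM in Zeb2 cKO, so all Zeb2 cKO libraries lay below all WT libraries. Its log2 fold change was -1.90 (SE 0.70, unadjusted p = 0.0300, adjusted p = 0.957, edgeR) and -0.66 without WT replicate 2. Cd22 had -1.59 (SE 0.70) and Csk, the kinase that places the phosphates CD45 removes, -0.39 (SE 0.20), which were -0.57 and -0.25 without WT replicate 2.

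Markers of other cells moved with WT replicate 2. Of the 14 macrophage and monocyte markers, 13 were tested. In WT replicate 2, 10 of them were at more than 2 times the median of the other 5 libraries. The median of the 13 was 3.43 times, beside 3.39 times for the 7 genes. The tested markers that stayed under 2 times were Mrc1 (1.76), Mertk (1.25) and Lyve1 (1.05). The summed level of these markers was 247.7, 941.6 and 341.5 CPM in WT replicates 1, 2 and 3 and 294.0 to 324.7 CPM in Zeb2 cKO. Adgre1 (F4/80), a surface marker of mouse macrophages, was at 11.6, 54.03 and 17.6 CPM in WT and 13.8 to 14.3 CPM in Zeb2 cKO, with a log2 fold change of -0.98 (SE 0.53), and C1qb and C1qa, chains of complement C1q, had -0.97 (SE 0.54) and -0.76 (SE 0.44). The differences were -0.05, -0.02 and -0.04 without WT replicate 2. The fibroblast markers, which are no leukocyte genes, were higher there as well, with 6 of 6 above 2 times and a sum of 4388 CPM against 916 to 1337 in the other libraries.

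Of the cardiomyocyte markers, 7 of 8 were under the median of the other libraries in WT replicate 2, where 50.8% of all tested genes were. Their sum was 11504 CPM there against 17570 to 22285. The eighth, Nppa, the natriuretic peptide of stressed heart muscle, was 3.79 times that median. Nppa was at 337.2, 716.5 and 309.4 CPM in WT and 188.9, 131.5 and 188.0 CPM in Zeb2 cKO, a log2 fold change of -1.42 (SE 0.36, unadjusted p = 0.00584, adjusted p = 0.957, edgeR) and of -0.93 without WT replicate 2. Of 6 endothelial markers, 4 (66.7%) were under the median of the other libraries in WT replicate 2, beside 50.8% of all tested genes. The list's median was 0.674 times, and the sum was 369.7 CPM there against 457.5 to 547.6 CPM in the other libraries. The T cell markers summed to 3.33 CPM in WT replicate 2 and to 0.576 to 0.919 CPM elsewhere, and 1 of 8, Cd4, was tested. Neutrophil markers summed to 0.346 to 1.98 CPM over all libraries. S100a8 and S100a9, the 2 tested, had a median log2 fold change of -0.84, and of -0.93 without WT replicate 2. They rest on 4 to 43 counts, and 0 of the 2 had an unadjusted p under 0.05 in either fit (edgeR). Of the defining neutrophil markers, Ly6g and Mpo had at most 0.0260 CPM. Elane had 0 counts in all libraries, which allows up to 0.0796 CPM (3 counts) in WT replicate 1, where 1 count weighs most. The part of these cells in the levels of the 7 genes was not tested.

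**Figure D5:**
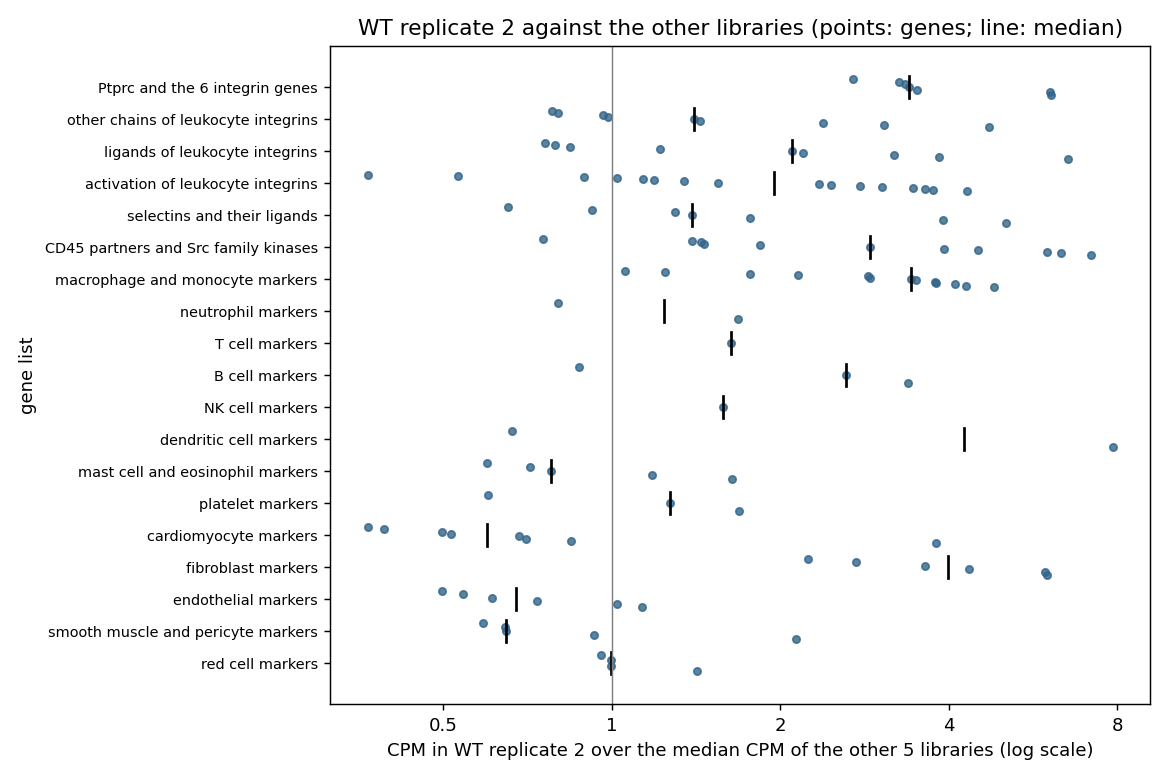
CPM in WT replicate 2 divided by the median CPM of the other 5 libraries, on a log axis, for the tested genes of each list (points) with the list's median (line). The 7 genes lie between 2.69 and 6.10, the macrophage markers have a median of 3.43, the fibroblast markers 3.99 and the cardiomyocyte markers 0.599.

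Over the other lists of markers, the summed levels of B cells (0.799 to 2.69 CPM), NK cells (0.372 to 1.44 CPM), dendritic cells (13.5 to 17.5 CPM), mast cells and eosinophils (4.15 to 7.03 CPM) and platelets (5.02 to 8.70 CPM) were low. NK cell and B cell markers were highest in WT replicate 2. The dendritic cell sum was carried by Zbtb46, which endothelial cells also express, at 9.57 to 17.0 CPM, while Flt3 was at 1.21 CPM in WT replicate 2 and at most 0.261 CPM elsewhere. Smooth muscle and pericyte markers summed to 413.2 CPM in WT replicate 2 and to 561.2 to 667.2 CPM elsewhere. In WT replicate 2, 4 of these 5 markers were under the median of the other libraries, and Tagln was 2.13 times it. Red cell markers summed to 127.9 to 232.8 CPM. Adipocyte markers summed to 0.186, 0.137 and 0.260 CPM in WT replicates 1, 2 and 3. In Zeb2 cKO replicates 1, 2 and 3 they summed to 1.22, 0.484 and 0.428 CPM. These sums did not overlap, but rest on 1 to 5 counts per gene and library in WT and 3 to 25 in Zeb2 cKO. Among single tested genes, 6.36% had groups that did not overlap. None of the adipocyte markers passed the filter with all libraries. Cidec passed it without WT replicate 2, with a log2 fold change of 2.11 (unadjusted p = 0.0142, edgeR). In that fit 0% of 14966 tested genes passed an adjusted p of 0.05, and 1.55% were higher at an unadjusted p under 0.05. The name Cidec was chosen after its values were seen, and the part of adipocytes in the levels of the 7 genes was not tested.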

How the data were processed

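RNA-seq counts were available for 3 WT and 3 Zeb2 cKO libraries of mouse heart, 14 days after MI. The authors prepared stranded libraries after removal of ribosomal RNA, and the values they deposited are raw counts per gene, made with the STAR workflow on Gencode M4 (GRCm38) according to the methods. The submitters' processing notes also list DESeq 1.2. The strand option and the handling of multi-mapping reads are not given in the sources used here. All 6 count columns were matched to samples, with 0 left over. Symbols and lengths came from Gencode M21.

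In R 4.3.3, edgeR 4.0.16 scaled the counts by TMM, and genes were filtered with filterByExpr and tested with glmQLFit and glmQLFTest on genotype, with Benjamini-Hochberg adjustment over the 14746 genes kept. The prior count was 0.125 for fold changes and 2 for log2 CPM. DESeq2 1.42.0 was an alternative. Single values were compared by exact permutation tests over libraries, two-sided (SciPy 1.17.1, Python 3.11.15), whose smallest p is 0.1. Shared sequence was sought with BLAST 2.17.0, at 75 bases and 95% identity or more. The edgeR step was tested on simulated data. The members and lists were chosen with earlier results of these data known. Named were the 7 genes, the genes of each list past an adjusted p of 0.05 or else the 3 with the smallest p (of the cell type markers, only those that a stated result turns on), genes a result turns on, Zeb2, and the 5 genes most like Itgb2 and Ptprc. Depth was 37288174 to 51136331 counts, so counting error matters for Itgal, Itgax and Itgb7, and the spread between libraries for the rest. Alternatives covered normalization, filter, test, mitochondrially encoded genes, replicate number, ratio and length, and leaving out each library; medians of lists without WT replicate 2, the alpha sum by transcript length and the count under a log2 fold change of -0.2 were added after seeing the data.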

Additional observations from a re-analysis of the deposited data

How the results depend on the processing

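With RLE size factors, DESeq2, no filter on low counts, a prior count of 2 or without mitochondrially encoded genes, all 7 log2 fold changes stayed below 0 and none passed an adjusted p of 0.05. DESeq2 called 2 genes of all tested. It gave 1 of the 7 genes an unadjusted p under 0.05, beside 217 lower and 144 higher of 14746 genes. The test without a filter also gave 1 of the 7, beside 326 lower and 274 higher of 24115 genes. With the replicate block, whose numbers did not pair the libraries (correlations of deviations 0.09, -0.14 and -0.09), the median of the 7 was -0.55 and Itgal turned to 0.051; for the ratios to Ptprc it leaves the means as they are, and it changed no call.

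Leaving out 1 library, the number of the 7 genes with an unadjusted p under 0.05 ranged from 0 to 5 (5 without WT replicate 1), of genes whose groups did not overlap from 0 to 1, of genes under -0.2 from 1 to 7, and their median from -1.15 to 0.027. Over all genes tested, the shares ranged in the same fits from 0.813% to 7.52% with an unadjusted p under 0.05, from 10.9% to 23% not overlapping and from 11.7% to 28.8% under -0.2, where the lowest share under -0.2 was that without WT replicate 2 and the highest of each that without WT replicate 1. The ranges of the log2 fold changes were -0.46 to 0.73 for Itgal, -1.10 to 0.041 for Itgam, -2.04 to -0.33 for Itgax, -1.16 to -0.012 for Itgb2, -0.91 to -0.021 for Itga4, -1.67 to 0.18 for Itgb7 and -1.15 to 0.027 for Ptprc. The value above 0 came without WT replicate 2 for Itgam, Itgb7 and Ptprc, and without WT replicate 2 or Zeb2 cKO replicate 2 (0.10) for Itgal. Differences in the log2 ratio to Ptprc ranged from 0.37 to 0.91 for Itgal, -0.18 to 0.13 for Itgam, -0.98 to -0.40 for Itgax, -0.22 to 0.057 for Itgb2, -0.084 to 0.22 for Itga4 and -0.60 to 0.027 for Itgb7. With Itgb2 as the denominator, the difference of Itgam turned to 0.058. The cause of these changes was not tested. The mean level per kilobase of Ptprc moved to 2.87 with the longest transcript. With 3 libraries a group, the 95% intervals of the 7 genes reach from -3.30 to 1.18. Itgal and Itgb7 are also limited by counts of 9 to 83, and Itgax by 34 to 54 counts outside WT replicate 2.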
